A study of Rattus norvegicus with 71 samples.

Results

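Whole lung RNA of Fisher and Lewis rats, both inbred strains, was compared at postnatal day 14 (PN14) after exposure to saline in utero, with 4 bead arrays per strain out of 71 arrays in all. The full set covers Lewis, Fisher and Brown Norway rats at PN1, PN7 and PN14 after saline or ovalbumin, an egg protein used as a model allergen, given in utero. To tell differences of day 14 from those of every day, the PN1 and PN7 saline arrays of both strains were used (15 arrays, 3 of them Fisher PN7), and the 8 PN14 ovalbumin arrays of both strains, which share no array with the saline comparison, gave a further set of lungs. Litter, sex and animal are not given, so the p-values measure only the spread between samples, which may be technical. That spread was pooled within the groups of all 71 arrays and not taken from the 8 arrays compared alone. Members are all 14019 probes detected on enough arrays to be tested, of 22523 on the array, and differences are Fisher minus Lewis on the log2 scale with their standard errors (SE) from a linear model fitted with limma. Calls are adjusted p-values under 0.05, by Benjamini-Hochberg over all probes tested.

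The rat major histocompatibility complex, RT1, encodes class I molecules, which show peptides from inside the cell to cytotoxic T cells, and class II molecules, which show peptides to helper T cells. Class I genes of the rat vary between strains in number and in sequence. Interferon-induced genes encode antiviral proteins and are switched on through short promoter elements with repeats of the letters GAAA. Between birth and the end of the second postnatal week the rat lung forms its alveoli, while cell division first rises and then slows. In whole tissue, fewer cells of a type and less RNA per cell cannot be told apart.

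Fisher and Lewis lungs differed at PN14 in 545 probes, 3.89% of those tested, of which 250 (1.78%) were higher and 295 (2.1%) lower in Fisher. The smallest difference called was 0.30 in size, and the median difference over all probes tested was 6e-04. The 4 Fisher arrays lay wholly above or wholly below the 4 Lewis arrays in 501 of the 545 called probes and in 1326 of all 14019 (9.46%), and such probes are said here not to overlap. Among genes with a symbol, the largest differences were in genes of unlike function. The endosomal protein Plekhf2 and the ribosomal protein Rpl30 were higher in Fisher, and the alpha globin Hba-a3 and the WASH complex subunit Washc3 lower. Class I genes of RT1 differed in both directions, while none of the 8 measured class II genes was called by limma or reached an unadjusted p under 0.05. Interferon-induced genes that were called were higher in Fisher. The lung markers Scgb3a2 and Aqp5 were detected on all 8 arrays.

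The 8 arrays detected 10902 to 12226 probes, with median raw signals of 140.7 to 161.9. All 4 Fisher arrays and Lewis c and d were hybridized on slide 5, while Lewis a and b were on slide 1. Fisher c and d stood apart from each other, with a standard deviation of their log2 difference over probes of 0.515, as against 0.247 for Fisher a and b and 0.413 to 0.569 for arrays of different strains. With only the 6 arrays of slide 5, 257 probes were called, 244 of them among the 545. With slide as a term of the fit, 400 were called. Without background correction, as in the authors' deposited values, 28 of 62 named genes had differences smaller by over 1.5 times on the log2 scale, and none changed sign. Such values are given below beside the genes that have a difference or a fold printed.

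The PN14 calls were set against those of the earlier days. Of the 545 probes, 273 (50.1%, or 1.95% of all probes tested) were called in the same direction at PN1 and PN7 too, 116 higher and 157 lower in Fisher. A further 140 were called in the same direction at either PN7 (70) or PN1 (70). At neither earlier day were 124 probes (22.8%) called, and 8 were called in the opposite direction at an earlier day. The 273 probes of all 3 days had median absolute differences of 1.21 at PN1, 1.25 at PN7 and 1.22 at PN14, and 57 of them differed by 2 or more at PN14.

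**Figure D1:**
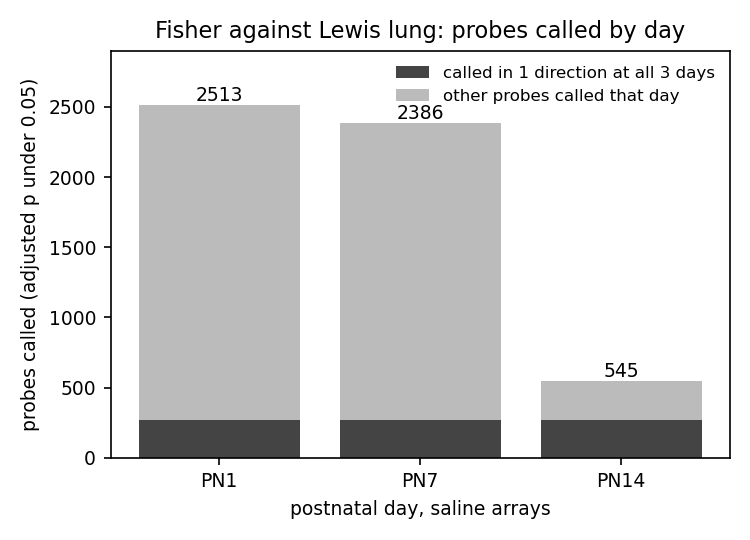
Probes called between Fisher and Lewis saline arrays at each postnatal day (bars, number of probes). The dark part, 273 probes, was called in the same direction at all 3 days, and the totals above the bars are 2513, 2386 and 545.

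More probes were called at the earlier days, 2513 at PN1 (17.9%, with 8.81% higher and 9.12% lower in Fisher) and 2386 at PN7 (17%, with 9.14% higher and 7.88% lower). Of the 4207 probes called at either day, 3786 were not called at PN14. The spread of the differences over all probes was also wider, with a standard deviation of 0.493 at PN1, 0.455 at PN7 and 0.35 at PN14. The count at PN7 depended on which arrays entered the fit. It was 1578 without Lewis PN7 a, 1527 without Lewis PN7 b, 3682 without Lewis PN7 c and 1068 without Fisher PN7 c. Without Fisher PN1 a, Lewis PN7 d and Fisher PN7 c together it was 721, and it was 261 in a fit of only the 7 PN7 arrays, below the 500 of the like fit at PN14. At PN1 the like fit called 2031. The cell cycle genes are an example of a group that differed early: 28 of 31 measured were higher in Fisher at PN1, with a median difference of 1.84, and 0 were called by limma at PN14, 0 also at an unadjusted p under 0.05, where their median was -0.08. The day 14 interaction described below called 0 of them, with 17 at an unadjusted p under 0.05.

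Of the 273 probes called at all 3 days, 93 have no gene symbol, and the largest difference higher in Fisher (5.465) was in such a probe. Among those with a symbol, the genes higher in Fisher were led by Plekhf2, which binds phosphoinositides on endosomes. Its log2 signal was 10.31, 10.44, 10.38 and 10.49 on the Fisher arrays and 4.91, 4.84, 5.08 and 5.14 on the Lewis arrays, where it was not well above background on any. The strains were far apart, at least 27.9-fold by the lowest detected signal of the Lewis arrays (adjusted p = 2.98e-36, limma). This bound and those given below for other genes hold for background-corrected values only. Plekhf2 differed by 3.55 on the log2 scale without background correction. Rpl30, a protein of the large ribosomal subunit, read 13.95, 13.96, 13.81 and 14.01 in Fisher and 9.39, 9.34, 9.66 and 9.67 in Lewis, a 21.4-fold difference (4.42 ± 0.17). Mrpl18 of the mitochondrial ribosome was 4.23 ± 0.16 higher in Fisher, while Mrpl17 of the same particle was lower by 3.17 (-3.17 ± 0.18). For these genes the arrays of the strains did not overlap.

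Immune and metabolic genes stood in the same group. Stat6, the transcription factor of interleukin 4 and 13 signalling, read 8.97, 9.01, 8.90 and 8.74 in Fisher and 6.0, 5.92, 6.63 and 6.11 in Lewis (2.74 ± 0.22). The difference was 1.90 at PN1 and 1.78 at PN7. Nos3, the nitric oxide synthase of endothelium, was 1.82 ± 0.21 higher and was the only one of 20 measured endothelial genes called at PN14. That count and the one for liver genes below stand beside 3.89% called over all probes tested. Akr1b8, an aldo-keto reductase, was 2.30 ± 0.19 higher, and Klkb1, the precursor of plasma kallikrein that the liver makes in bulk, 3.03 ± 0.24 higher. No other of the 16 measured liver genes was called at PN14. Commd6 (2.53 ± 0.29) and Gnpda2, a deaminase of amino sugar metabolism (2.21 ± 0.24), complete the 12 genes higher in Fisher by most at all 3 days, together with Cth and 3 class I genes described below. Without background correction the differences were 1.76 for Stat6, 1.51 for Akr1b8, 1.66 for Klkb1 and 1.47 for Commd6.

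Lower in Fisher at all 3 days was Hba-a3, an alpha globin gene. It read 4.99, 4.53, 4.98 and 4.63 in Fisher, not well above background on any array, and 11.19, 12.14, 10.80 and 10.77 in Lewis, at least 48.3-fold lower in Fisher (adjusted p = 1.24e-15, limma). Of 19 measured globin and erythroid genes it was the only one called at PN14, beside 3.89% of all probes tested. Alpha globin genes are near-identical copies, so the signal of this probe may not belong to 1 gene. Washc3, a subunit of the WASH complex that builds actin on endosomes, read 6.40, 6.31, 5.75 and 6.52 in Fisher and 11.39, 11.50, 11.24 and 11.37 in Lewis (-5.13 ± 0.18). Odc1, ornithine decarboxylase, which starts polyamine synthesis, was not well above background on any Fisher array and was at least 10.1-fold lower there. These groups too lay apart on every array. Odc1 was at -2.54 without background correction, and Hba-a3 ran from -6.59 to -4.47 over the other fits.

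Lcn2, the iron-binding lipocalin of neutrophils and inflamed epithelium, read 6.10, 6.05, 6.03 and 5.84 in Fisher and 10.27, 10.37, 10.16 and 10.18 in Lewis (-4.24 ± 0.46). Its standard deviation was 0.11 in Fisher and 0.1 in Lewis at PN14, but 1.78 in Fisher at PN7, which enters the pooled SE. Lcn2 was the only one of 14 measured neutrophil genes called. This and the list counts that follow stand beside 3.89% called over all probes tested. Spp1, which encodes osteopontin, a secreted product of activated macrophages among other cells, read 5.65, 5.59, 5.81 and 5.22 in Fisher and 8.05, 8.21, 7.80 and 7.90 in Lewis (-2.42 ± 0.39). With Lgals5, a galectin known from rat erythroid cells and macrophages (-2.12 ± 0.45), it made up the 2 of 19 macrophage genes called. Scgb3a2, an airway secretory protein, was lower at each day, by 1.65 at PN1 (-1.65), 1.89 at PN7 (-1.89) and 1.25 at PN14 (-1.25 ± 0.11). Dbp, a transcription factor of the circadian output, read 6.11, 6.11, 5.73 and 6.60 in Fisher and 8.21, 8.15, 8.20 and 7.99 in Lewis (-2.00 ± 0.22). The other 11 measured clock genes were not called. Without background correction Spp1 was at -1.28 and Dbp at -1.16.

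**Figure D2:**
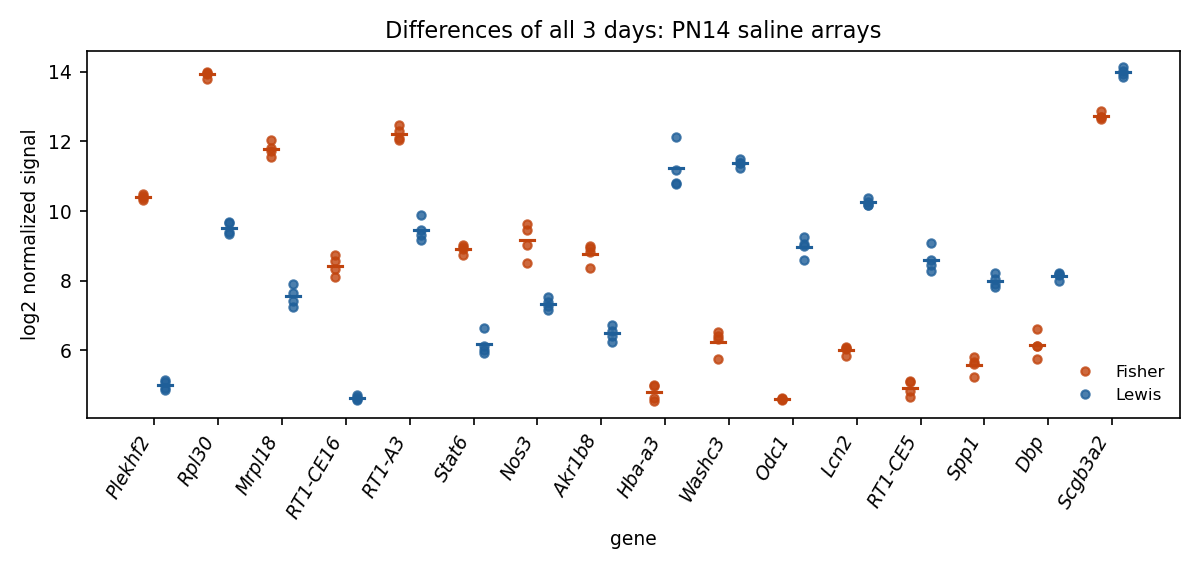
Log2 normalized signal on each PN14 saline array (points) and group mean (line) for 16 genes called in the same direction at all 3 days, with Fisher and Lewis 4 arrays each. The strains do not overlap for any gene shown, with Plekhf2 to Akr1b8 higher and Hba-a3 to Scgb3a2 lower in Fisher.

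The 12 genes lower in Fisher by most at all 3 days also included Qrfpr, the receptor of a neuropeptide (-3.99 ± 0.35), the actin adaptor Sorbs2 (at least 5.62-fold), Plekhh1 (-2.93 ± 0.25), Tpcn2, an ion channel of lysosomes (-2.69 ± 0.15), the organic anion transporter Slco1a5 (-2.65 ± 0.26) and the fatty acid hydroxylase Cyp4v3 (at least 3.01-fold). Without background correction Plekhh1 was at -1.80, Tpcn2 at -1.59, Sorbs2 at -1.67 and Cyp4v3 at -1.24. Sorbs2, Cyp4v3 and Klkb1 are next to each other among measured genes in the order of the GRCr8 annotation, with Klkb1 higher and the other two lower in Fisher. Of the genes with a probe called at all 3 days, 17 (9.5%) had such a gene as direct neighbour, as did 3.51% of the other measured genes. Of the 273 probes, 32 were not well above background on any Fisher array and 16 on any Lewis array at PN14, and 1 of them was in both counts. A probe reads only a short stretch of a transcript, and whether each probe matches the transcripts of both strains equally was not tested. Among the 6 of these genes with several probes, all probes were called in the same direction for Qprt and Cep295, while for Farp1 one probe was higher in Fisher (0.78, adjusted p = 3.89e-06, limma) and the other was at -0.31 (adjusted p = 0.676).

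Of 16 measured MHC class I genes, 6 were higher and 1 lower in Fisher at PN14, and 6 of these 7 were called in the same direction at all 3 days. Over all probes tested, 1.78% were higher and 2.1% lower at PN14, and 1.95% were called in the same direction at all 3 days. The median over the 16 genes was 0.14. RT1-A3 read 12.09, 12.05, 12.46 and 12.30 in Fisher and 9.18, 9.46, 9.88 and 9.32 in Lewis (2.76 ± 0.19). RT1-CE16 read 8.33, 8.55, 8.09 and 8.73 in Fisher and was not well above background on any Lewis array, at least 7.04-fold higher in Fisher. RT1-CE5 ran the other way, at 4.83, 4.66, 5.10 and 5.08 in Fisher, not well above background, and 8.26, 8.44, 9.07 and 8.58 in Lewis, at least 7.77-fold lower in Fisher. The log2 difference without background correction was 2.06 for RT1-CE16 and -2.01 for RT1-CE5.

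RT1-S2 was at least 4.11-fold higher in Fisher, RT1-CE7 was higher by 1.28 ± 0.22 and RT1-A1 by 0.43 ± 0.13. The log2 difference of RT1-S2 was 1.47 without background correction. RT1-A1 (adjusted p = 0.0435, limma) lost its call with slide as a term and on slide 5 alone. Its call was also lost when Lewis a, b or d or Fisher b, c or d was left out. RT1-S3 (1.06 ± 0.19) was called at PN7 and PN14 and not at PN1, where its difference was 0.09. B2m, the light chain that all class I molecules share, differed by 0.07 ± 0.11 (adjusted p = 0.94, limma). Over the fits run for this list, 4 to 6 members were higher and 1 lower. Class I genes are close copies of each other and differ between strains, so which gene a probe reads in each strain is uncertain. The 8 class II genes had differences of -0.30 to 0.05 at PN14.

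Interferon-induced genes were called in 1 direction, with 6 of 24 measured higher in Fisher at PN14 and 0 lower. Beside these counts stand 1.78% higher and 2.1% lower over all probes tested. The median of the list was 0.36. Mx2, a GTPase that blocks viruses, read 7.66, 8.58, 7.62 and 8.75 in Fisher and 5.53, 6.47, 6.18 and 6.42 in Lewis (2.00 ± 0.36, adjusted p = 4.25e-05, limma). Ifi27, a small membrane protein, read 13.11, 13.10, 13.49 and 13.31 in Fisher and 11.99, 12.09, 12.49 and 12.36 in Lewis (1.02 ± 0.17). Dhx58, which regulates the sensing of viral RNA, read 6.71, 7.46, 6.75 and 7.38 in Fisher and 6.02, 5.88, 6.23 and 5.97 in Lewis (1.05 ± 0.22). Fisher b and d were higher than Fisher a and c for Mx2 and Dhx58, but not for Ifi27, and in none of the 3 genes did the strains overlap.

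Oasl, of the oligoadenylate synthetase family, was 0.95 ± 0.21 higher, and its relative Oas1i 0.76 ± 0.23. Usp18, which removes the ubiquitin-like protein ISG15, was called as higher, but it was not well above background on any Lewis array and was so on 1 Fisher array only, so no fold is given, and its call was lost in 13 of 17 other fits. Without background correction the differences were 1.18 for Mx2, 0.52 for Dhx58 and 0.53 for Oasl. Ifi27 and Mx2 were called in each fit run for this list, while Dhx58 (adjusted p = 0.117), Oasl (0.051), Oas1i and Usp18 were not called on the arrays of slide 5 alone. Oas1i (adjusted p = 0.0446 with all arrays, limma) also lost its call when any single PN14 saline array other than Fisher a was left out. Over these fits 2 to 8 members were called. At PN7, 6 of the 24 were higher in Fisher, beside 9.14% of all probes tested, and at PN1 0 were, beside 8.81%. Of the genes called at PN14, only Oasl, Dhx58 and Mx2 were among those called at PN7. The day 14 interaction described below called 0 of the 24, with 2 at an unadjusted p under 0.05. A change of the strain difference with age was therefore not shown for any. In the ovalbumin arrays 5 were higher at PN14, beside 1.63% of all probes tested. Oasl, Ifi27, Usp18 and Mx2 were among them, while Dhx58 (adjusted p = 0.287, limma) and Oas1i (0.539) were not called there.

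Promoters of the called interferon-induced genes were read because these genes were higher together. The table of RefSeq promoters (GRCr8) held 3 of the 6 called genes and 16 of the 18 others, and each was searched on both strands for GAAA, any 2 bases and GAAA again, the core of the interferon-stimulated response element, in 250 bases before to 50 after the gene start. Among all 33469 promoters, 1312 (3.92%) held the motif. It was found in Ifi27 and Oas1i, not in Oasl, and in 11 of the 16 genes that were not called. The bases before the start of both genes are shown with the matches in capitals, to let the elements be seen beside the values.
Ifi27, chr6:128355062-128355311, plus strand: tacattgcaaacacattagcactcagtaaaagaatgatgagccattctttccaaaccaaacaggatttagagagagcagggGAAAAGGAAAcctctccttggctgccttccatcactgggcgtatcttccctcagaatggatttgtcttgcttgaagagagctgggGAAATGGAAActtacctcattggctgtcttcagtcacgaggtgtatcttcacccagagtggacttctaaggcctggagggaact
Oas1i, chr12:41284976-41285225, plus strand: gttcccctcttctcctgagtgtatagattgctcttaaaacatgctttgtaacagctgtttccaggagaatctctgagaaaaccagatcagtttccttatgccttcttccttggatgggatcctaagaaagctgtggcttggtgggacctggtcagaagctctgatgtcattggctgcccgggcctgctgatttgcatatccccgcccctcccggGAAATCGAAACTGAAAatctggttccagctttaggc
In Ifi27 the matches begin 169 and 84 bases before the start. In Oas1i they begin 36 and 30 bases before it and overlap. A match describes the sequence and does not show that a factor binds there.

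Of 16 mast cell and eosinophil genes 2 were lower in Fisher, as were 2.1% of all probes tested. Ccl11, the eosinophil chemoattractant eotaxin, read 5.85, 5.84, 5.81 and 5.93 in Fisher and 6.99, 7.09, 6.70 and 6.93 in Lewis (-1.07 ± 0.24), without overlap. Its difference was -0.03 at PN1 and -0.33 at PN7, neither called, and -1.66 in the ovalbumin arrays (adjusted p = 2.18e-07, limma). At PN1 Ccl11 was well above background on 1 Fisher and 1 Lewis array, and at PN7 on 0 Fisher arrays and 1 Lewis array. The early values thus lie near background and do not show that the strains were equal. The day 14 interaction described below was -0.89 for Ccl11 and was not called (adjusted p = 0.118, limma). Mcpt10, a mast cell protease, was at -1.0 ± 0.27, and -0.74 with slide as a term (adjusted p = 0.233). Its difference was called at PN7 too (-0.86, adjusted p = 0.0362, limma) and not at PN1 (-0.42). The mast cell markers Kit, Cpa3 and Ms4a2 were at -0.07, 0.32 and -0.02, none called. Cxcl9, a chemokine induced by interferon gamma, was 1.86 ± 0.49 higher in Fisher, and 1.77 with slide as a term (adjusted p = 0.0797). Its difference was called at PN1 too (1.40, adjusted p = 0.0345, limma) and was 1.35 at PN7, not called (adjusted p = 0.0667). Without background correction Ccl11 was at -0.50, Mcpt10 at -0.54 and Cxcl9 at 1.17. None of 19 T and NK cell genes and none of 6 B cell genes was called by limma, with 2 and 0 at an unadjusted p under 0.05.

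**Figure D3:**
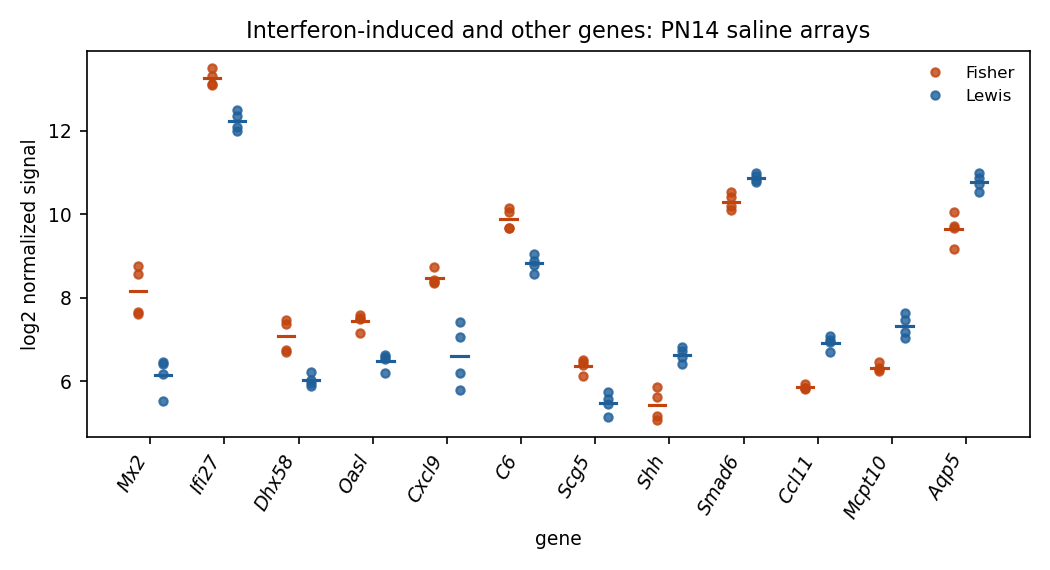
Log2 normalized signal on each PN14 saline array (points) and group mean (line), Fisher and Lewis 4 arrays each, for interferon-induced genes and further genes described in the text. Mx2 to Scg5 are higher and Shh to Aqp5 lower in Fisher, and the strains do not overlap for any gene shown.

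Detoxification and antioxidant genes differed in both directions, with 4 of 39 measured higher and 5 lower in Fisher. Over all probes tested, 1.78% were higher and 2.1% lower. Higher were Akr1b8, the glutathione transferases Gsta4 (0.78 ± 0.12) and Gstt2 (0.43 ± 0.11) and the mitochondrial superoxide dismutase Sod2 (0.47 ± 0.11). Lower were the carboxylesterase Ces1d (-1.40 ± 0.17), the thioredoxin reductase Txnrd1 (-0.81 ± 0.10), the flavin monooxygenase Fmo1 (-0.73 ± 0.22) and the glutathione transferases Gstm1 (-0.62 ± 0.16) and Gstt1 (-0.59 ± 0.14). On slide 5 alone, 2 were higher and 2 lower. Ces1d, Txnrd1, Gstt1, Akr1b8 and Sod2 were called in the same direction at all 3 days.

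Calls among structural and growth genes of the lung are given by list, and stand beside 3.89% over all probes tested. Aqp5, the water channel of alveolar type 1 cells, read 9.66, 10.05, 9.17 and 9.72 in Fisher and 10.98, 10.86, 10.72 and 10.52 in Lewis (-1.12 ± 0.25), the only one of 15 type 1 genes called. With slide as a term it was at -0.81 (adjusted p = 0.124). Aqp5 was also called as lower at PN1 (-0.94, adjusted p = 0.00442, limma) and not called at PN7 (-0.16). Mfap5 of the elastic fibre microfibrils (-0.70 ± 0.18) was the only one of 30 matrix genes called, and Srebf2, the regulator of sterol synthesis, (-1.0 ± 0.24) the only one of 18 sterol and fatty acid genes. Hspb1, a small heat shock protein, was at -0.42 ± 0.11. Of 49 cytosolic ribosomal protein genes 4 were called, Rpl30 and Rpl6 (0.43 ± 0.05) higher and Rps2 (-0.41 ± 0.13) and Rps15 (-0.53 ± 0.16) lower, and the Rps2 arrays of the strains overlapped. Alveolar type 2, ciliated, smooth muscle, cell cycle, imprinted, glucocorticoid-responsive, adipose, muscle, respiratory chain and immunoproteasome genes gave 0 calls by limma at PN14, with 0 to 3 genes of each list at an unadjusted p under 0.05. On slide 5 alone Srebf2 (adjusted p = 0.0754), Hspb1 (0.375), Rps2 (0.779) and Rps15 (0.585) were not called. Srebf2 was at -0.52 without background correction, and Rps15 at -0.35 without Fisher c (adjusted p = 0.429, limma). At PN1 Srebf2 was also called as lower (-1.48, adjusted p = 2.22e-06, limma), and at PN7 it was at -0.31, not called.

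A difference that is called at PN14 and missed at the earlier days may still be present there. Of the 124 probes called at PN14 and at neither earlier day, 65 had the same sign at all 3 days, and 38 reached an unadjusted p under 0.05 in the PN14 direction at PN1 or PN7. The difference at PN14 was therefore tested against the mean of the PN1 and PN7 differences, here called the day 14 interaction. It called 113 probes (0.806%), 64 higher and 49 lower, of which 27 were also called at PN14. Of the 124 probes, 13 passed it with the same sign, 7 higher and 6 lower in Fisher (0.0927% of probes tested), and 7 of these have a gene symbol.

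These counts depended on single arrays and on the model. Without Lewis PN14 a the interaction called 12 probes and the set of 13 fell to 3, and without Lewis PN7 c the counts were 808 and 37. Without Lewis PN14 b they were 29 and 6, without Fisher PN14 c 33 and 5, and without Fisher PN14 d 23 and 5. Leaving out Fisher PN14 a gave 198 for the interaction, Lewis PN1 c 69, Fisher PN1 c 74 and Lewis PN7 d 62, and Lewis PN7 b gave 62 with a set of 8. With slide as a term they were 28 and 5, and in a fit of only the groups compared 4 and 2.

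Among those higher in Fisher at PN14 and called at neither earlier day was C6, a component of the membrane attack complex of complement. It read 9.67, 9.67, 10.14 and 10.04 in Fisher and 8.89, 9.05, 8.56 and 8.78 in Lewis. Its difference was -0.49 at PN1, 0.37 at PN7 and 1.06 ± 0.22 at PN14, and the interaction was 1.13 ± 0.27 (adjusted p = 0.0243, limma). In the ovalbumin arrays C6 was 0.84 ± 0.22 higher in Fisher (adjusted p = 0.00993, limma). C6 passed the interaction in 24 of 32 other fits.

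Scg5, a secretory chaperone of neuroendocrine cells, read 6.39, 6.50, 6.13 and 6.47 in Fisher and 5.14, 5.46, 5.74 and 5.58 in Lewis, where it was well above background on 2 arrays. The difference was 0.89 ± 0.16 at PN14, 0.04 at PN1 and -0.27 at PN7. Scg5 was well above background on 2 Fisher arrays and 1 Lewis array at PN1, and on 1 Fisher and 3 Lewis arrays at PN7. The early differences, and the interaction built on them, thus rest partly on readings near background. The interaction (1.01 ± 0.20) was called in 31 of 32 other fits, the exception being without Lewis PN14 a (adjusted p = 0.0502, limma). In the ovalbumin arrays the difference of Scg5 was 0.18 ± 0.16 (adjusted p = 0.907). On slide 5 alone its PN14 difference was 0.71 (adjusted p = 0.113). Without background correction the PN14 difference was 0.36 and the interaction 0.40.

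Shh, the ligand of the hedgehog pathway that directs airway branching, was lower in Fisher. It read 5.87, 5.62, 5.08 and 5.18 in Fisher, where it was well above background on 1 array, and 6.81, 6.42, 6.59 and 6.73 in Lewis, without overlap. Its difference was -0.29 at PN1, -0.12 at PN7 and -1.20 ± 0.19 at PN14, with an interaction of -1.0 ± 0.23 that was called in 26 of 32 other fits. Without background correction the PN14 difference was -0.50 and the interaction -0.41. In the ovalbumin arrays it was -0.52 ± 0.19 (adjusted p = 0.141). Smad6, an inhibitor of signalling by bone morphogenetic proteins, read 10.40, 10.19, 10.52 and 10.10 in Fisher and 10.91, 10.82, 10.99 and 10.78 in Lewis (-0.57 ± 0.15 at PN14, interaction -0.75 ± 0.18, called in 24 of 32 other fits). Its ovalbumin difference was -0.16 ± 0.15, and on slide 5 alone its PN14 difference was -0.59 (adjusted p = 0.133).

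The other 3 named genes of this kind, each lower in Fisher at PN14, were Ndst1, an enzyme of heparan sulfate sulfation (-0.62 ± 0.18), Bckdhb of branched-chain amino acid breakdown (-0.47 ± 0.12) and the protein N-terminal methyltransferase Ntmt1 (-0.38 ± 0.12), whose strains overlapped. Their interactions were called in 9, 17 and 9 of 32 other fits, and on slide 5 alone none of the 3 was called at PN14 (adjusted p = 0.186, 0.846 and 0.865), where Bckdhb and Ntmt1 were both at -0.25. The probes of this set with the largest differences have no symbol, with 1.59 ± 0.14, 1.46 ± 0.21 and 1.41 ± 0.20 at PN14 and 1.37, 1.27 and 1.49 in the ovalbumin arrays. Those 3 probes and C6 were the 4 of the 13 that were called in the ovalbumin arrays as well. Of the 13 probes, 3 without a symbol were not well above background on any Lewis PN14 saline array, so their fitted differences are no folds.

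**Figure D4:**
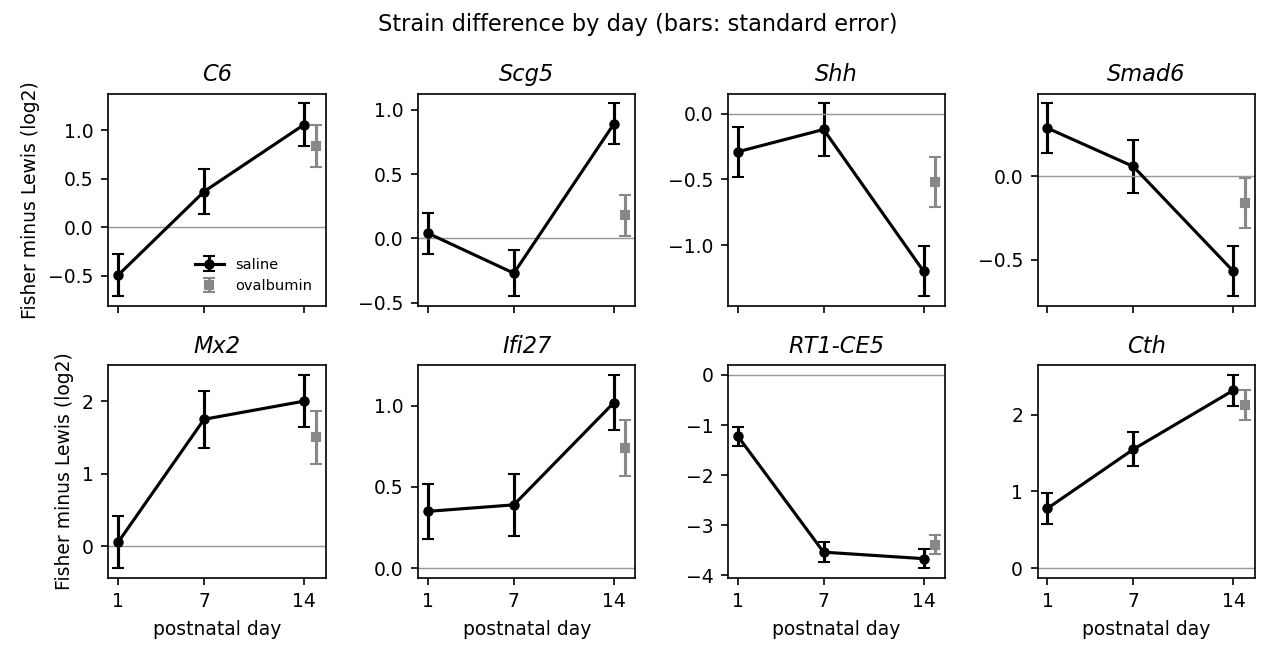
Fisher minus Lewis log2 difference (points) with its SE (bars) at PN1, PN7 and PN14 in saline arrays (black, joined by lines) and in the PN14 ovalbumin arrays (grey squares, drawn slightly to the right), each panel with its own scale. C6, Scg5, Shh and Smad6 were called at PN14 and at neither earlier day, Mx2 and Ifi27 were not called in the interaction, and RT1-CE5 and Cth were called at all 3 days with a larger difference at PN14 than at PN1.

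In 8 of the 273 probes of all 3 days the size of the difference also passed the interaction. RT1-CE5 went from -1.22 ± 0.19 at PN1 to -3.54 ± 0.20 at PN7 and -3.67 ± 0.19 at PN14 (interaction -1.29 ± 0.23, called in 32 of 32 other fits). Fisher was not well above background for RT1-CE5 on any array of the 3 days, so these fitted differences are no folds. Cth, the enzyme that makes cysteine and hydrogen sulfide, read 8.95, 8.52, 8.79 and 8.10 in Fisher and 6.06, 6.52, 6.08 and 6.40 in Lewis at PN14. Its difference was 0.78 ± 0.20 at PN1, 1.55 ± 0.22 at PN7 and 2.32 ± 0.20 at PN14, with an interaction of 1.16. Without background correction the interaction was -0.82 for RT1-CE5 and 0.75 for Cth, whose PN14 difference was then 1.46. Scgb3a2 had a smaller difference at PN14 than before, with an interaction of 0.52 ± 0.14 called in 13 of 32 other fits.

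The 8 probes that turned direction include 6 named genes with small differences. Ehd2, an ATPase of caveolae, was at 0.72 ± 0.17 at PN7 and -0.52 ± 0.16 at PN14. Fam81a was at -0.62 ± 0.17 and 0.58 ± 0.16, and Glmn, which binds cullin ligases, at -0.38 ± 0.13 and 0.46 ± 0.12 on the same days. Gstt2, Sema4g and Mettl3 turned between PN1 and PN7 and kept the PN14 sign at PN7. In the ovalbumin arrays Ehd2 was at -0.01 ± 0.16 and Fam81a at -0.15 ± 0.16, neither called. On slide 5 alone none of the 6 genes was called at PN14 (lowest adjusted p = 0.26, for Gstt2), where Sema4g was at 0.32 as against 0.68 with all arrays. Without background correction Fam81a was at 0.27, with an interaction of 0.43, and Sema4g at 0.41 at PN14.

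The PN14 ovalbumin arrays called 500 probes between the strains (3.57%, with 1.63% higher and 1.94% lower in Fisher). Of the 545 probes of the saline comparison, 539 had the same sign there, 378 were called in the same direction and 0 in the opposite. Of the 273 probes of all 3 days, 254 were called, with a median difference in the saline direction of 1.21 as against 1.22 in saline. Of the 124 called at PN14 alone, 31 were called and 120 had the same sign, with a median of 0.35 as against 0.65. Since the saline arrays chose these probes, their saline values are a description and not a fair match for the ovalbumin values. The difference between the saline and ovalbumin strain differences was tested in the same limma fit and called 0 probes (0%), with 320 at an unadjusted p under 0.05.

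**Figure D5:**
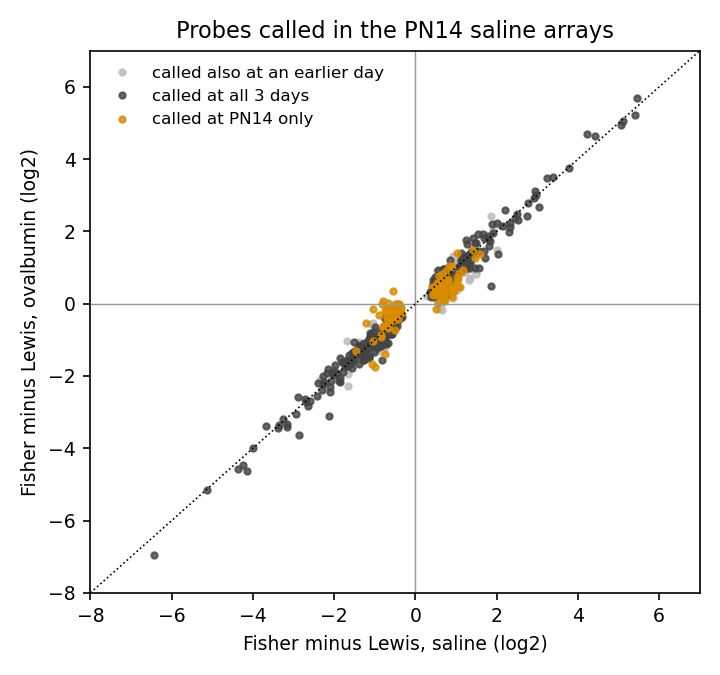
Fisher minus Lewis log2 difference at PN14 in saline arrays (x axis) and ovalbumin arrays (y axis) for the 545 probes called in saline arrays, with the dotted line marking equal values. The probes called at all 3 days had medians in the saline direction of 1.22 in saline and 1.21 in ovalbumin arrays. Single probes among them lie off the line, as Lgals5 does at -2.12 and -3.12. Of the 545 probes, 539 have the same sign on both axes.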

How the data were processed

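Whole lung RNA was labelled with biotin and read on rat bead arrays. The authors deposited, per the file headers, mean bead signal intensities without normalization and a detection p-value for each probe and array. Their deposited log2 values equal the quantile normalized log2 raw signal without background correction, to within 5.0e-05, and the submitters' processing notes name lumi. Here neqc of limma 3.58.1 (R 4.3.3, data.table, version 1.17.8) corrected the intensities for background with an offset of 16 and made quantile normalized log2 values. A probe was tested where its detection p-value was below 0.01 on 3 arrays or more. One model with 18 group means (53 residual degrees of freedom) was fitted over 71 arrays with moderated statistics and a trend. Each SE thus rests on a spread shared by all groups, which were not equally variable. The root mean square standard deviation was 0.247 in Lewis and 0.284 in Fisher PN14 saline arrays, and 0.397 and 0.354 in those of PN7. Where a group was not well above background on any array, the lowest detected signal of each array bounds the fold of the background-corrected values. Depth has no count here, and the number of arrays limits the precision. Figures were drawn with matplotlib 3.10.9 and pandas 2.3.3 in Python 3.11.15. The fit was tested on simulated data.

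RefSeq gene entries matched 13752 of the 13793 probes that have exactly 1 symbol. The named genes are, by PN14 difference, the 12 highest and 12 lowest of those called at all 3 days, the same for those of day 14 that pass the interaction, up to 6 that turned direction, and up to 5 called members of lowest p from each of 30 gene lists with 4 or more measured genes. Oas1i, RT1-A1, RT1-S3, Sod2, Fmo1, Gstm1, B2m, Kit, Cpa3, Ms4a2, Qprt, Cep295 and Farp1 fall outside that rule and were named after their values were seen. The members and lists were chosen with earlier results of these data known. The fits were repeated with the authors' values, without background correction, with other detection filters, with slide as a fixed or random term, on slide 5 alone, on only the groups compared, with the replicate letter, and without 3 arrays in doubt or each array in turn. The saline against ovalbumin contrast, the calls by day and the list counts under other fits were added after the data were seen.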

Additional observations from a re-analysis of the deposited data

Results flagged for a closer look

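In 4 named genes 1 array lay far from the other 3 of its group. Sorbs2 was at 7.85 on Lewis PN14 a, with the others at 8.19 to 8.24. RT1-CE7 was at 10.97 on Lewis b, with the others at 11.12. Lgals5 was at 11.21 on Lewis b, with the others at 10 to 10.15, and Usp18 at 5.08 on Lewis d, with the others at 4.74 to 4.78. By chance alone about 1 in 20 groups would give such an array.

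The strain difference at PN14 differed from the mean of the earlier days in 113 probes. Among named genes the interaction was 1.16 for Cth, 1.13 for C6, 1.01 for Scg5, 0.90 for Fam81a, 0.71 for Glmn and 0.52 for Scgb3a2. It was -1.29 for RT1-CE5, -1.02 for Ehd2, -1.0 for Shh, -0.84 for Ndst1, -0.75 for Smad6, -0.61 for Bckdhb and -0.54 for Ntmt1.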

How the results depend on the processing

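The 545 probes called at PN14 became 257 on slide 5 alone, and otherwise 400 to 613 were called, with 405 (without Lewis PN14 a) to 527 when each PN14 saline array was left out and 534 to 583 when each PN1 or PN7 saline array was. The count of probes called at all 3 days was 229 to 282 in every alternative run, 254 to 282 with an array left out. The 500 calls of the ovalbumin arrays ran from 452 to 514, and from 433 to 470 with an array left out.

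The interaction count of 113 became 75 with no detection filter, 28 with slide as a fixed term, 4 with only the groups compared, 7 with the replicate block and 60 without the 3 arrays in doubt, and ran from 12 to 808 with an array left out. The set of 13 became 5 with slide as a fixed term, 2 with only the groups compared and 3 with the replicate block, and ran from 3 to 37 with an array left out. The share higher in Fisher, 56.6% of the interaction calls and 53.8% of the set, reached 85.7% and 100% with the replicate block.

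The replicate letters were not taken to pair arrays, since the deviations of same-lettered PN14 saline arrays correlated by 0.207, 0.067, 0.277 and 0.076 for a to d. With the replicate block 582 probes were called at PN14, 237 at all 3 days and 452 in the ovalbumin arrays. Of the 62 named genes, 21 lost the PN14 call on slide 5 alone, 14 with slide as a fixed term and 0 to 15 under each other alternative, and 0 changed sign. Of their PN14 differences 28 were smaller by over 1.5 times both without background correction and with the authors' values, 3 on slide 5 alone and 0 or 1 under each other alternative, as were 5 of 13 interactions without background correction. The cause was not tested. The number of arrays and signal over background limit small differences of dim probes.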
